A study of Mus musculus with 10 samples.

Results

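Myc and 31 genes of ribosome production were followed in mouse liver 6 h after activation of the death receptor CD95. The 32 genes were taken by symbol from a list of MYC, nucleolar proteins, RNA polymerase I subunits, small nucleolar ribonucleoprotein (snoRNP) proteins and factors that process the small and the large ribosomal subunit. All 32 were found among the 38922 genes of the tables, and all 32 were among the 13719 genes with enough reads to be tested. The groups compared were 5 mice given an intraperitoneal CD95-activating antibody (CD95-Ab) at 0.5 µg/g body weight and 5 mice given saline. All were wild-type male C57BL/6N mice of 6 weeks. RNA was made from whole liver of each mouse, so every value averages over hepatocytes and all other liver cells, and fewer cells of a type cannot be told apart from less RNA per cell.

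Ribosomes are built in the nucleolus, where RNA polymerase I transcribes the ribosomal RNA precursor. Box C/D snoRNPs guide ribose methylation of that precursor and box H/ACA snoRNPs guide the conversion of uridine to pseudouridine, while large assemblies of processing factors cut and fold it into the small and the large subunit. MYC is a transcription factor that binds DNA as a dimer with MAX at the E-box CACGTG, and nucleolar and ribosome biogenesis genes are among its best known targets. In liver, Myc is known as an early response gene of injury and of regeneration.

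Libraries held 25965699 to 62097636 counts in saline-injected controls and 27480796 to 44962196 in CD95-Ab mice, so that 3 counts corresponded to 0.0556 to 0.121 CPM. Levels are given in CPM, which are counts scaled to a TMM-adjusted library total of 1000000, unless FPKM is named. Mitochondrial genes took 7.56 to 10.1% of counts in saline mice 1 to 4 and 21.9% in saline mouse 5, and 8.45 to 22.1% in CD95-Ab mice, with the highest share in CD95-Ab mouse 4. The small RNA Rn7sk was at 0.204 to 0.808 CPM in controls and 355 to 1300 CPM after CD95-Ab, and albumin fell from 7.72 to 9.65% of counts to 2.88 to 5.44%. Counts of called genes, their fold changes and the ratios within complexes were also computed without saline mouse 5 and CD95-Ab mouse 4. These mice had the highest mitochondrial shares of their groups, and the part of that share in the results was not tested. The Rn7sk and albumin ranges did not overlap between the groups, so their part cannot be told apart from that of CD95-Ab.

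After CD95-Ab, 17 of the 32 genes were higher than in saline-injected controls and 0 were lower, at a false discovery rate (FDR, Benjamini-Hochberg) of 0.05 in the quasi-likelihood test of edgeR. Among all tested genes 47.3% passed this rule in either direction, 25.4% being higher and 22.0% lower. At an unadjusted p under 0.05 in the same test 18 were higher and 0 lower, and DESeq2, the edgeR likelihood ratio test and limma-voom each called 17 higher and 0 lower. Only Myc passed a log2 fold change of 2 as well, a mark that 6.59% of all tested genes passed upwards and 1.11% passed downwards. In 13 of the 32 genes all 5 CD95-Ab mice lay above all 5 controls, an arrangement found in 18.6% of tested genes, and the reverse, found in 14.7% of tested genes, occurred in 0 of the 32. The median log2 fold change was 0.40 over the 32 genes and 0.0064 over all tested genes. Without saline mouse 5 and CD95-Ab mouse 4, 17 genes were again higher, although Ncl entered (log2 fold change 0.27, FDR = 0.0486) and Nop2 left (0.35, FDR = 0.0635), and Polr1c was then lower (-0.37, FDR = 0.0423).

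**Figure D1:**
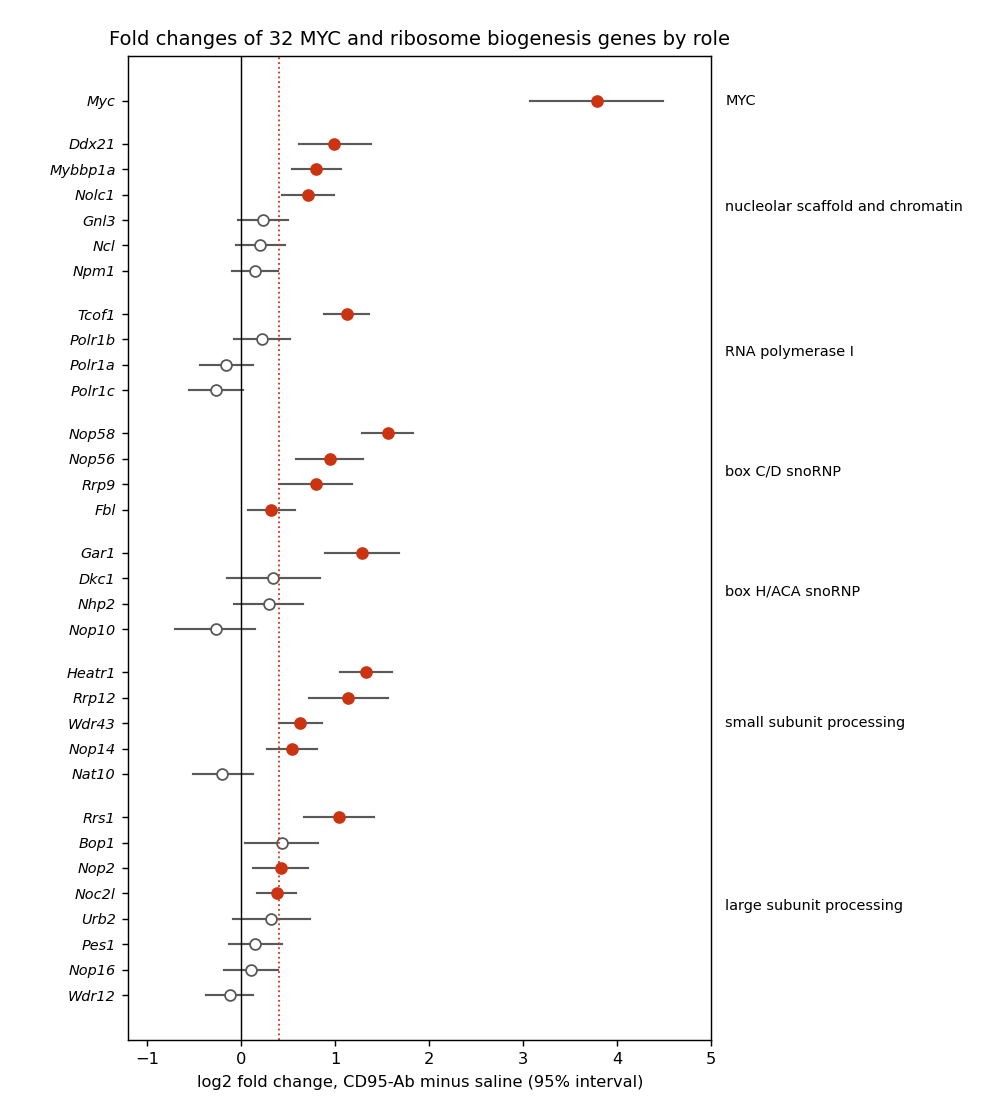
Log2 fold change of CD95-Ab mice over saline-injected controls (x axis) for the 32 genes, grouped by role, with the 95% interval of the edgeR quasi-likelihood fit as bars. Filled points mark the 17 genes at an FDR of 0.05 or less, which all lie to the right of 0, and Myc stands alone at 3.78.

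Myc (ENSMUSG00000022346, chromosome 15, 61985391 to 61990374 on the plus strand, GRCm38) encodes the transcription factor itself. It was at 4.99, 4.27, 2.28, 3.39 and 5.06 CPM in saline mice 1 to 5 and at 31.3, 53.2, 77.6, 79.4 and 34.9 CPM in CD95-Ab mice 1 to 5. The lowest CD95-Ab mouse was thus far above the highest control, and CD95-Ab mice 3 and 4 were the highest. The means were 4.0 ± 1.17 and 55.3 ± 22.8 CPM (SD, n = 5 each), a 13.7-fold difference with a 95% interval of 8.4 to 22.5 (log2 fold change 3.78, SE 0.33, FDR = 4.08e-06). Raw counts of Myc ran from 81 to 273 in controls and from 975 to 1966 after CD95-Ab. Per transcript length the level went from 2.11 ± 0.722 to 26.8 ± 8.68 FPKM.

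**Figure D2:**
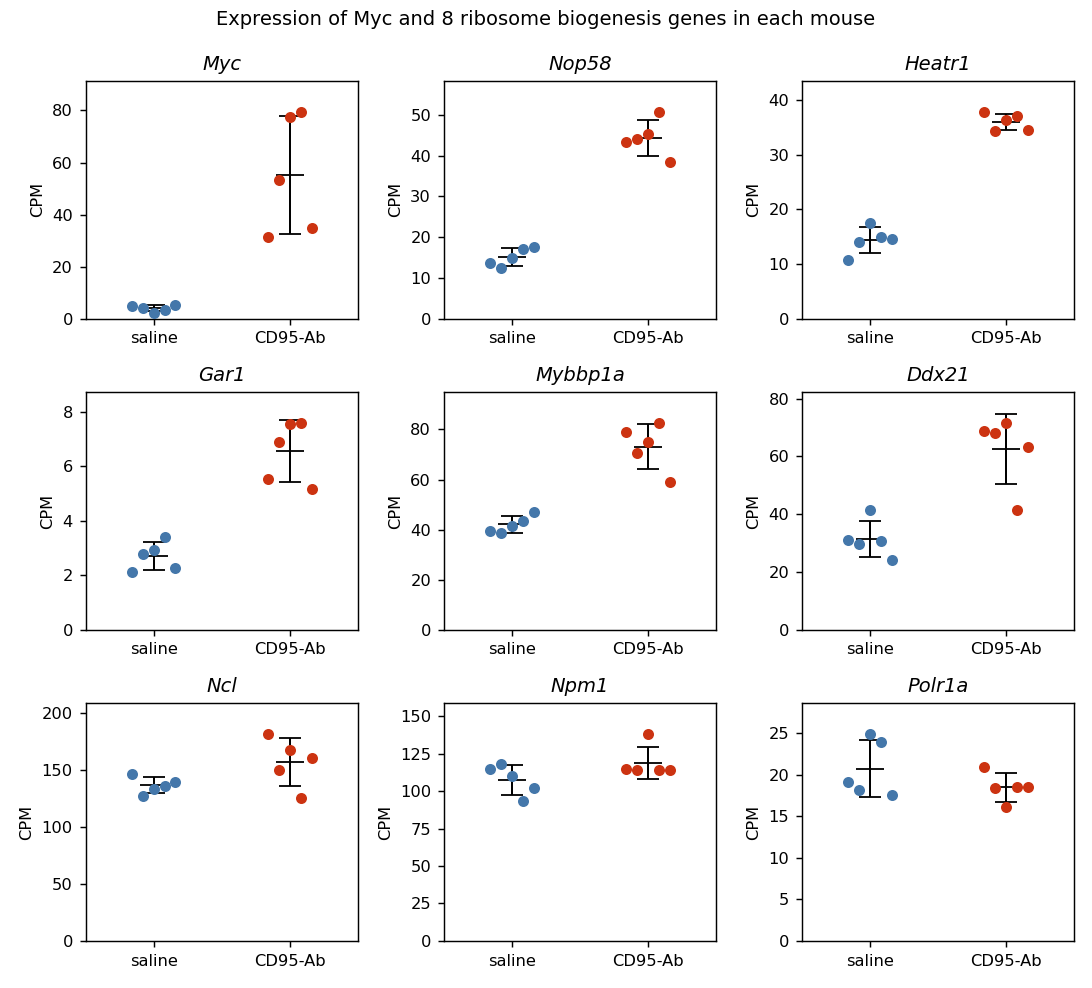
CPM in each mouse (points, y axis) for Myc and a selection of the other genes, saline-injected and CD95-Ab mice side by side, with bars at the group means. Myc runs from 2.28 to 5.06 CPM in controls and from 31.3 to 79.4 CPM after CD95-Ab.

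Promoter windows of 250 bases before to 50 bases after the start site were read from RefSeq (GRCm38.p6) for the 25 of the 32 genes that matched an entry, because the E-box is the sequence MYC and MAX bind. No entry was found for Fbl, Bop1, Rrp12, Tcof1, Rrs1, Npm1 and Myc among the promoter sequences used. Of these, Fbl, Rrp12, Tcof1, Rrs1 and Myc were called higher after CD95-Ab, and the motif shares leave them out. The canonical E-box, which reads the same on both strands, was found in the windows of 4 genes, written here 5′ to 3′ with the E-box in capitals and up to 10 flanking bases on each side.
Nop2: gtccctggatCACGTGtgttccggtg
Pes1: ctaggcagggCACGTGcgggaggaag
Mybbp1a: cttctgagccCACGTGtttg
Wdr43: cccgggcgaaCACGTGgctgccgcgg
The windows lie on the plus strand at chr6:125131813-125131838 for Nop2, chr11:3963967-3963992 for Pes1, chr11:72441357-72441376 for Mybbp1a and chr17:71616222-71616247 for Wdr43. Counted from the RefSeq start site, the E-box begins at -60 in Nop2, at 3 in Pes1, at 41 in Mybbp1a and at 18 in Wdr43.

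The canonical E-box was present in 4 of 25 genes (16%, 95% Wilson interval 6.4 to 34.7%), against 11.6% of the tested genes and 8.09% of all genes with a RefSeq window. The variant CACGCG, or CGCGTG when read on the other strand, was present in 9 of 25 (36%, interval 20.2 to 55.5%), against 19% of tested genes and 10.5% of all genes. Of the 4 genes printed above, Nop2, Mybbp1a and Wdr43 were higher after CD95-Ab and Pes1 did not pass the test. A match in a window describes the sequence and not a bound site.

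Among the 6 nucleolar scaffold and chromatin genes, 3 rose after CD95-Ab and 3 did not pass the test, with a median log2 fold change of 0.47. Ddx21 (chromosome 10, 62580251 to 62602281), an RNA helicase of the nucleolus, was at 31.1, 29.7, 41.4, 30.7 and 24.2 CPM in saline mice and at 68.7, 68.1, 71.5, 41.4 and 63.1 CPM in CD95-Ab mice. Only CD95-Ab mouse 4 reached down to the controls, and the log2 fold change was 0.99 (SE 0.18, FDR = 7.06e-04). Mybbp1a (chromosome 11, 72441355 to 72451768), a Myb-binding nucleolar protein, was at 39.5, 38.8, 41.3, 43.6 and 47.0 CPM in controls and at 79.1, 70.5, 74.8, 82.5 and 59.0 CPM after CD95-Ab. Its groups did not overlap, and the log2 fold change was 0.80 (SE 0.12, FDR = 1.92e-04). Nolc1, a chaperone of snoRNPs, was at 14.9 to 23.3 CPM in controls and at 32.4, 32.4, 32, 32.3 and 27.1 CPM in CD95-Ab mice 1 to 5, again without overlap (0.71, SE 0.13, FDR = 8.91e-04).

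The remaining 3 genes of this group, the highest of it by control FPKM, did not pass the test. Ncl, which encodes the RNA-binding protein nucleolin, was at 146, 127, 133, 136 and 139 CPM in controls and at 181, 150, 167, 125 and 160 CPM after CD95-Ab, so that its lowest value was in a CD95-Ab mouse. Its log2 fold change was 0.20 with a 95% interval of -0.059 to 0.46 (FDR = 0.185). Npm1, which encodes the nucleolar chaperone nucleophosmin, had an interval of -0.10 to 0.39 around 0.15 (FDR = 0.307), and Gnl3, which encodes the GTP-binding protein nucleostemin, one of -0.032 to 0.50 around 0.23 (FDR = 0.134). A doubling of the RNA lies outside all 3 of these intervals, while smaller rises do not.

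Of the 4 genes of RNA polymerase I transcription, only Tcof1 was called higher (25.0%, near the 25.4% of all tested genes). The 3 genes of polymerase subunits did not pass the test. Tcof1 (chromosome 18, 60813755 to 60848971), which encodes treacle, a nucleolar factor of ribosomal RNA gene transcription, was at 4.96, 4.71, 4.25, 4.66 and 5.28 CPM in controls and at 10, 11.1, 9.75, 10.3 and 10.6 CPM after CD95-Ab. The spread between mice was small in both groups (4.77 ± 0.382 and 10.4 ± 0.543 CPM, SD, n = 5), and the log2 fold change was 1.12 (SE 0.11, FDR = 1.18e-05). Polr1a, the largest catalytic subunit, had a log2 fold change of -0.16 (95% interval -0.44 to 0.12, FDR = 0.319). Polr1b, the next largest subunit, was at 0.22 (-0.073 to 0.52, FDR = 0.196), and Polr1c, a subunit shared with RNA polymerase III, at -0.27 (-0.56 to 0.023, FDR = 0.117).

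All 4 box C/D snoRNP genes were called higher, against 25.4% of all tested genes, with a median log2 fold change of 0.86. Nop58 (chromosome 1, 59684971 to 59719044), a core protein of the box C/D particle, had the largest change of the 31 genes other than Myc. It was at 13.6, 12.5, 14.8, 17.0 and 17.5 CPM in controls and at 43.3, 44.2, 45.3, 50.7 and 38.4 CPM after CD95-Ab. The lowest CD95-Ab mouse was above the highest control by a wide margin, and the mean went from 15.1 ± 2.13 to 44.4 ± 4.40 CPM, a 2.94-fold difference (log2 fold change 1.56, SE 0.12, FDR = 2.67e-06). Its partner Nop56 (chromosome 2, 130274430 to 130279313) was at 17.3, 17.8, 17.9, 17.1 and 24.9 CPM in controls and at 36.9, 31.9, 30.0, 50.4 and 33.6 CPM after CD95-Ab. The groups did not overlap although saline mouse 5 lay above the other controls, and the log2 fold change was 0.94 (SE 0.16, FDR = 6.33e-04).

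Rrp9, a protein of the snoRNP that directs the early cuts of the precursor, was at 5.25, 5.87, 5.86, 5.85 and 7.29 CPM in controls and at 12.0, 9.68, 11.4, 12.5 and 6.58 CPM after CD95-Ab. CD95-Ab mouse 5 fell within the controls, and the log2 fold change was 0.79 (SE 0.18, FDR = 0.00337). Fbl, which encodes fibrillarin, the methyltransferase of the same particles, was at 22.5, 23.5, 21.4, 22.7 and 24.6 CPM in controls and at 28.7, 27.1, 30.2, 34.4 and 23.3 CPM after CD95-Ab. Its change was the smallest of the 17 genes called (0.32, SE 0.11, FDR = 0.0352), and the call was lost in 12 of the 21 alternative fits, in 8 of which 1 mouse was left out (saline mouse 1, 2, 3 or 4 or CD95-Ab mouse 1, 2, 3 or 4, FDR = 0.05 to 0.0986).

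Of the 4 box H/ACA snoRNP genes, Gar1 alone was called higher (25.0%, near the 25.4% of all tested genes). Gar1 (chromosome 3, 129824912 to 129831396), a core protein of the pseudouridine-forming particle, was at 2.12, 2.79, 2.93, 3.39 and 2.28 CPM in controls and at 5.55, 6.91, 7.56, 7.59 and 5.16 CPM after CD95-Ab. No CD95-Ab mouse reached down to the controls, and the log2 fold change was 1.28 (SE 0.18, FDR = 1.43e-04). Dkc1, which encodes dyskerin, the pseudouridine synthase of the particle, was at 11.3, 10.8, 10.8, 9.47 and 4.36 CPM in controls and at 12.1, 12.6, 12.8, 9.04 and 12.6 CPM after CD95-Ab. Saline mouse 5 stood apart with less than any other mouse, and the interval of the log2 fold change was wide (0.34, -0.15 to 0.84, FDR = 0.236). The small core proteins Nhp2 (0.29, -0.078 to 0.66, FDR = 0.177) and Nop10 (-0.27, -0.70 to 0.15, FDR = 0.271) had estimates of opposite sign. Without CD95-Ab mouse 4, Nop10 was called lower (-0.46, FDR = 0.0485).

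Among the 5 genes of small subunit processing, 4 were called higher (80.0%, against 25.4% of all tested genes). Each of the 4 was without overlap between the groups, against 18.6% of all tested genes. The median log2 fold change was 0.63. Heatr1 (chromosome 13, 12395027 to 12440289), a large scaffold protein of the small subunit processome, was at 10.8, 14.1, 17.5, 14.9 and 14.5 CPM in controls and at 37.8, 34.3, 36.3, 37.0 and 34.5 CPM after CD95-Ab. The CD95-Ab mice were close together, at 36 ± 1.55 CPM against 14.4 ± 2.41 CPM (log2 fold change 1.33, SE 0.13, FDR = 8.28e-06). Rrp12 (chromosome 19, 41862851 to 41896173), a factor of nuclear export of pre-ribosomes, was at 4.96, 4.36, 7.83, 6.81 and 4.91 CPM in controls and at 16.8, 12.6, 12.8, 10.9 and 10.5 CPM after CD95-Ab. All CD95-Ab mice were above all controls, with a log2 fold change of 1.14 (SE 0.19, FDR = 5.01e-04).

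Wdr43 and Nop14 are further components of the small subunit processome. Wdr43 was at 18.3, 18.1, 22.3, 22.1 and 20.5 CPM in controls and at 32.5, 29.9, 30.0, 34.8 and 29.5 CPM after CD95-Ab (0.63, SE 0.10, FDR = 4.40e-04). Nop14 was at 12.4 to 15.8 CPM in controls and at 17.2 to 24.8 CPM after CD95-Ab (0.54, SE 0.12, FDR = 0.00375). In this group Nat10, which acetylates cytidines of ribosomal RNA, was the exception. It was at 15.7, 15.9, 14.1, 17.9 and 16.6 CPM in controls and at 14.1, 10.7, 11.7, 17.5 and 16.1 CPM after CD95-Ab (-0.20, -0.51 to 0.12, FDR = 0.293).

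Of the 8 genes of large subunit processing, 3 were called higher (37.5%, against 25.4% of all tested genes). The other 5 did not pass the test, and the median log2 fold change was 0.35. Rrs1 (chromosome 1, 9545408 to 9547455), a ribosome assembly factor, was at 10.6, 9.72, 16.3, 13.4 and 11.0 CPM in controls and at 25.0, 25.6, 27.4, 29.0 and 18.1 CPM after CD95-Ab. The groups were apart, with means of 12.2 ± 2.65 and 25.0 ± 4.18 CPM (1.04, SE 0.17, FDR = 4.01e-04). Noc2l, a nucleolar protein also known as an inhibitor of histone acetyltransferases, was at 24.0, 22.9, 24.6, 22.8 and 21.2 CPM in controls and at 30.4, 31.7, 30.5, 31 and 26.6 CPM after CD95-Ab. It did not overlap either, with a smaller change of 0.38 (SE 0.09, FDR = 0.0058). Nop2, a cytosine methyltransferase of ribosomal RNA, was at 12.0, 12.7, 15.9, 13.3 and 13.3 CPM in controls and at 21.9, 16.1, 15.8, 20.3 and 15.6 CPM after CD95-Ab. CD95-Ab mice 3 and 5 lay within the control range (0.42, SE 0.13, FDR = 0.0222), and the call was lost in 10 of the 21 alternative fits, 5 of them without 1 mouse (saline mouse 1, 2 or 4 or CD95-Ab mouse 1 or 4, FDR = 0.0538 to 0.0625).

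Pes1, Bop1 and Wdr12 form the PeBoW complex of large subunit maturation, and none of them passed the test. Bop1 came closest, at 15.8, 14.9, 18.9, 22.8 and 11.4 CPM in controls and 26.2, 24.6, 23.6, 20.3 and 17.9 CPM after CD95-Ab (0.43, 0.036 to 0.82, FDR = 0.0683), and it was called without saline mouse 4 (0.54, FDR = 0.0212) and without CD95-Ab mouse 5 (0.50, FDR = 0.0461). Pes1 was at 0.15 (-0.13 to 0.43, FDR = 0.354) and Wdr12 at -0.12 (-0.37 to 0.13, FDR = 0.399). The remaining large subunit factors Nop16 (0.10, -0.18 to 0.39, FDR = 0.544) and Urb2 (0.32, -0.087 to 0.73, FDR = 0.178) did not pass either.

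**Figure D3:**
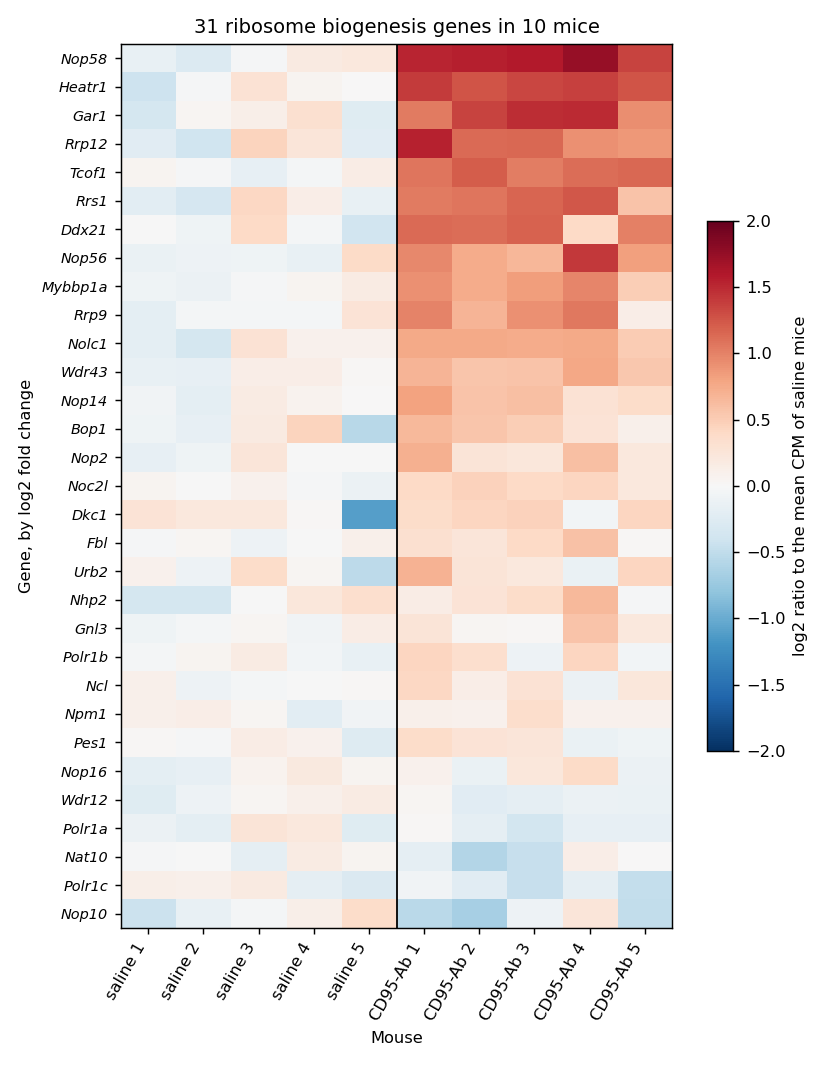
Log2 ratio of each mouse to the mean of the saline-injected controls (colour) for the 31 genes other than Myc. Rows are ordered by log2 fold change, and columns are the 5 saline and 5 CD95-Ab mice. The box C/D and small subunit rows are mostly higher in CD95-Ab mice, while those of Polr1a, Polr1c, Nat10, Wdr12 and Nop10 are not.

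The genes were also compared mouse by mouse. Over the 31 genes other than Myc, the median log2 ratio to the control mean was -0.09, -0.094, 0.12, 0.056 and 0.012 in saline mice 1 to 5 and 0.64, 0.44, 0.40, 0.43 and 0.21 in CD95-Ab mice 1 to 5. Every CD95-Ab mouse was above every control by this median, and 28, 25, 25, 24 and 23 of the 31 genes exceeded the control mean in CD95-Ab mice 1 to 5. CD95-Ab mouse 5 was the lowest of its group, and 14 of the 31 genes had their lowest CD95-Ab value in it. CD95-Ab mouse 4 held the highest value of its group for 14 genes and the lowest for 6.

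Genes whose proteins share a particle were compared with each other within each mouse, as the log2 ratio of their CPM. This ratio does not depend on the scaling of the library. The 15 pairs within 4 complexes were chosen after the values of the genes had been seen, and each was compared between groups with a two-sided exact permutation test adjusted over the 15 pairs (smallest possible p = 0.00794). The ratio differed in 10 of the 15 pairs, and in 6 when CD95-Ab mouse 1, 2 or 4 was left out (smallest possible p = 0.0159 in the exact test). Without saline mouse 5 and CD95-Ab mouse 4 together 0 of the 15 passed, since the smallest possible p of the exact permutation test was then 0.0286 and became 0.0536 when adjusted, a value reached by 8 of these 10 pairs, and all 10 kept their sign. Pairs within a complex share genes, so their ratios depend on each other and the 15 pairs are not separate results. The share of other gene pairs with such shifts was not computed. In the box C/D core, Fbl over Nop58 went from 0.62 ± 0.20 in controls to -0.63 ± 0.076 after CD95-Ab (SD, n = 5 each, exact permutation p = 0.00794, adjusted p = 0.0198), with no overlap between the groups. Fbl over Nop56 shifted by -0.62 (adjusted p = 0.0265, exact permutation test) and Nop56 over Nop58 by -0.63 (adjusted p = 0.0198, exact permutation test).

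In the box H/ACA core, Gar1 over Nop10 went from -3.44 ± 0.35 to -1.87 ± 0.29 (change 1.57, exact permutation adjusted p = 0.0198), the largest shift of the 15. Gar1 over Nhp2 shifted by 0.98 and Nhp2 over Nop10 by 0.59 (both adjusted p = 0.0198, exact permutation test), and Dkc1 over Gar1 by -0.88 (adjusted p = 0.0357, exact permutation test). Dkc1 over Nhp2 (0.10, adjusted p = 0.833) and Dkc1 over Nop10 (0.69, adjusted p = 0.165) did not pass the exact permutation test. Among the PeBoW genes, Bop1 over Wdr12 shifted by 0.57 (adjusted p = 0.0265, exact permutation test). Among the polymerase subunits, Polr1b rose against Polr1c by 0.48 (adjusted p = 0.0198, exact permutation test) and Polr1a fell against Polr1b by 0.36 (adjusted p = 0.0265, exact permutation test), although none of the 3 passed the test across all genes on its own.

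**Figure D4:**
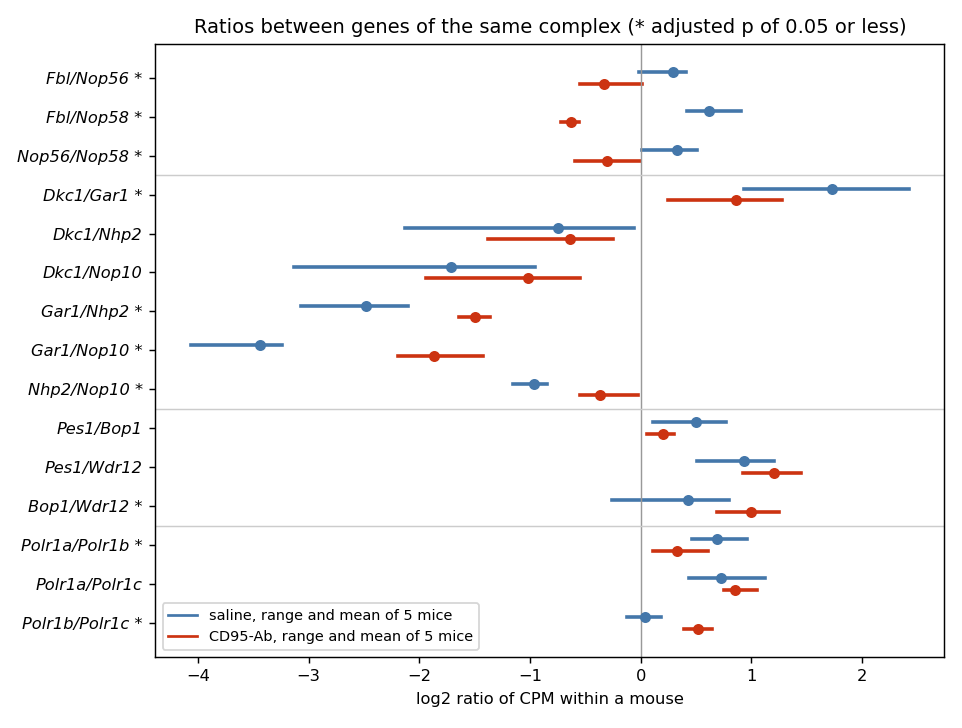
Log2 ratio (x axis) of the CPM of 2 genes whose proteins share a complex (pairs on the y axis), for saline-injected and CD95-Ab mice. Points mark the group means, and lines run from the lowest to the highest mouse of each group. Fbl over Nop58 lies between 0.42 and 0.91 in controls and between -0.72 and -0.56 after CD95-Ab.

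Levels of different genes are comparable only per transcript length. By mean FPKM in saline-injected controls Npm1 was the highest of the 32 genes (76.0 ± 14.3, SD, n = 5), followed by Nop10 (28.5 ± 3.04), Fbl (21.5 ± 2.13), Ncl (17.1 ± 1.91), Gnl3 (16.5 ± 1.09) and Nhp2 (15.9 ± 2.15), of which Ncl, Gnl3 and Nhp2 differed by less than the spread between mice. Tcof1 was the lowest at 1.13 ± 0.126 FPKM, and Myc was among the lowest. Across the 31 genes other than Myc, the Spearman correlation between log2 fold change and control FPKM was -0.37, and over all 13708 tested genes with FPKM above 0 in controls it was -0.31. These points share the same 10 libraries, and the control mice enter both axes. Of the 15 genes with the lowest control FPKM (1.13 to 6.14), 9 were called higher (median log2 fold change 0.54). Of the 16 with the highest (6.31 to 76.0), 7 were called higher (median 0.31). Over all tested genes the share called higher was 25.4%, and it was not computed for these FPKM ranges.

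Of 13 tested partners and antagonists of MYC, 5 were higher (38.5%, against 25.4% of all tested genes) and 2 lower (15.4%, against 22.0%). Mxd1, which competes with MYC for MAX, was at 6.16, 5.48, 6.71, 6.89 and 6.62 CPM in controls and at 26.4, 36.9, 49.5, 42.0 and 41.1 CPM after CD95-Ab, with no overlap (log2 fold change 2.62, SE 0.16, FDR = 6.42e-07). Mycl, the MYC family member MYCL, went the other way, from 5.67, 3.79, 8.26, 6.50 and 4.08 CPM in controls to 0.77, 0.637, 0.756, 0.969 and 0.841 CPM after CD95-Ab. Every CD95-Ab mouse was below every control (-2.83, SE 0.25, FDR = 4.73e-06). Max itself rose by less (0.58, SE 0.13, FDR = 0.00357), as did Mlxip, which dimerises with MLX (0.83, FDR = 5.58e-04), Mnt, another MAX partner (0.78, FDR = 0.00631), and Fbxw7, a ubiquitin ligase subunit that targets MYC for degradation (0.67, FDR = 9.58e-04). Mxd4, of the same family as Mxd1, fell (-0.84, FDR = 0.00241). Mycn was low in both groups (0.706 ± 0.438 and 0.839 ± 0.378 CPM) and was not called (FDR = 0.644).

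Among 27 further known MYC targets outside ribosome production, 12 were higher (44.4%, against 25.4% of all tested genes) and 3 lower (11.1%, against 22.0%). The median log2 fold change of the 27 was 0.19. Odc1, the rate-limiting enzyme of polyamine synthesis, went from 49.6 ± 20.4 to 197 ± 93.3 CPM (SD, n = 5 each, log2 fold change 1.99, FDR = 5.01e-04). Ccnd2, which encodes cyclin D2, rose by 2.41 (FDR = 4.42e-05), and Cad, the enzyme of the first steps of pyrimidine synthesis, by 1.37 (FDR = 0.0028), all without overlap between groups. Shmt1 and Shmt2, the serine hydroxymethyltransferases of the cytosol and of mitochondria, fell (-1.17, FDR = 2.2e-05, and -0.77, FDR = 9.69e-04), with every CD95-Ab mouse below every control.

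The wider machinery of ribosome production comprised 138 genes in 5 lists that share no gene with the 32. Of the 136 tested, 58 were higher (42.6%, against 25.4% of all tested genes) and 6 lower (4.41%, against 22.0%). The median log2 fold change was 0.30. In 46 genes all CD95-Ab mice lay above all controls, an arrangement found in 18.6% of all tested genes. In 6 genes they lay below, which was found in 14.7% of all tested genes. Of 50 tested small subunit factors, 22 were higher and 3 lower, led by Nol10 (1.52, FDR = 1.11e-05), Ltv1 (1.02, FDR = 1.04e-04) and Tsr1 (0.98, FDR = 1.48e-04), while Rrp36 (-0.43, FDR = 0.0169) and Utp3 (-0.36, FDR = 0.0197) fell. Without CD95-Ab mouse 2, only 1 of these factors was lower. Of 50 large subunit factors, 21 were higher and 0 lower in edgeR, against 2 lower at an unadjusted p under 0.05 and 2 in DESeq2. Eif6, which keeps the subunits from joining too early, went from 30.9 ± 4.05 to 102 ± 31.2 CPM (1.73, FDR = 5.71e-05), followed by Rrp1b (1.30, FDR = 1.42e-04) and the remodelling ATPase Mdn1 (1.11, FDR = 1.49e-05).

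Of 11 further snoRNP genes, 6 were higher (54.5%, against 25.4% of all tested genes) and 1 lower (9.09%, against 22.0%). Without saline mouse 4 only 3 were higher. Naf1 (1.05, FDR = 2.32e-04) and Shq1 (0.66, FDR = 0.0019), which assemble box H/ACA particles, and Snu13 (0.70, FDR = 1.44e-04), a core protein of box C/D particles, were higher, and Pih1d1 (-0.36, FDR = 0.0254), of the chaperone complex for snoRNP assembly, was lower, a call that was lost without saline mouse 2 or 3 or CD95-Ab mouse 2 or 5. Of 12 further genes of RNA polymerase I, 4 were higher (33.3%, nearer to the share of all tested genes). These 4 included the subunits Polr1e (0.92, FDR = 0.0011) and Polr1h (0.52, FDR = 0.0121) and the initiation factor Rrn3 (0.44, FDR = 0.0108). Ubtf, which encodes the architectural factor UBF of ribosomal RNA genes, was the only one of the 12 called lower (8.33%). It went from 45.9 ± 4.20 to 34.4 ± 1.91 CPM (-0.42, FDR = 0.00486). Of 13 tested genes of the RNA exosome, which trims the precursor, 5 were higher (38.5%), led by Mphosph6 (1.14, FDR = 2.99e-04). In the same list Exosc5 was lower (-0.72, FDR = 0.015). Of the exosome genes 2 were lower without CD95-Ab mouse 4, and 3 were higher when only library totals were used for scaling.

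The genes of the finished cytosolic ribosome differed from this picture in the number called, although most of their estimates were also above 0. The log2 fold change was above 0 in 65 of 78 ribosomal protein genes. It was above 0 in 27 of the 32 genes, in 103 of the 136 wider genes and in 6916 of all 13719. Of 78 tested ribosomal protein genes 3 were higher in edgeR (3.85%, against the 25.4% of all genes) and 0 lower, with a median of 0.13, and 7 were higher and 0 lower at an unadjusted p under 0.05. The number higher was 5 in DESeq2, 6 without saline mouse 5 and 7 without CD95-Ab mouse 5, and limma-voom called 1 lower. The 3 were Rpl10a (1.16, FDR = 0.00687), Rpl12 (1.13, FDR = 0.00459) and Rplp2 (0.53, FDR = 0.0258), and in each of them 1 CD95-Ab mouse lay within the control range. Ribosomal protein genes have many processed pseudogenes, and the share of their reads that was assigned to such copies is not known here. Rps12, named after its values were seen, ran from 2.77 to 57.0 CPM in controls and from 0 to 20.9 CPM after CD95-Ab. The lists were compared by their counts only.

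**Figure D5:**
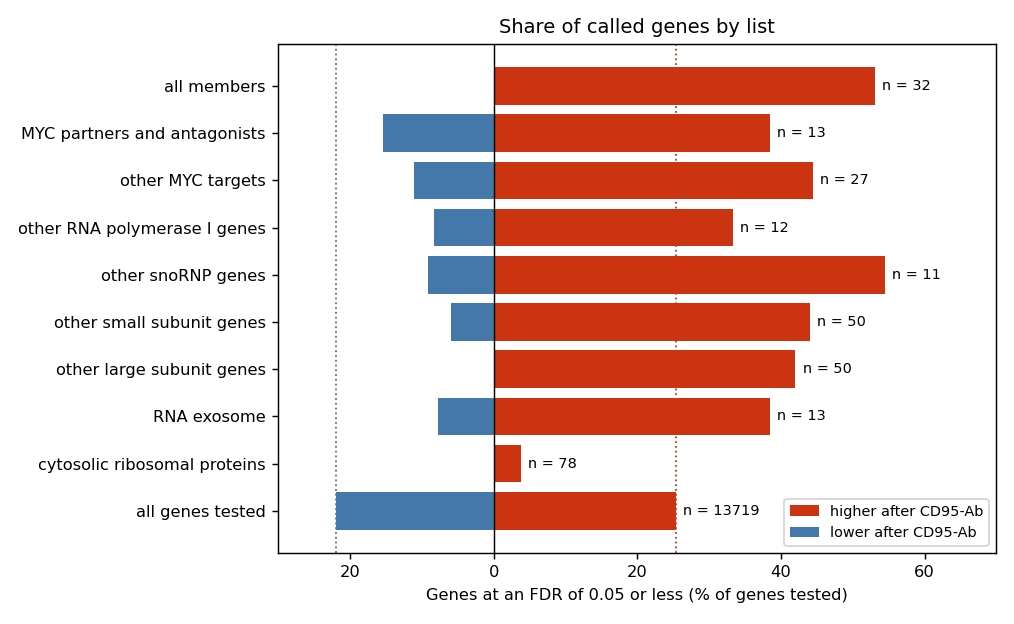
Share of tested genes that were higher and lower after CD95-Ab at an FDR of 0.05 (x axis, percent) for the 32 genes and for each wider list, with all tested genes as reference. The 32 genes stand at 53.1% higher and ribosomal proteins at 3.85%, with all genes at 25.4%.

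Markers of liver cell types were also compared, beside shares of 25.4% higher and 22.0% lower among all tested genes. All 5 tested neutrophil markers were higher (summed level 4.04 to 10.3 CPM in controls, 102 to 408 CPM after CD95-Ab), as were all 5 erythroid markers (135 to 323 against 1064 to 33995 CPM). Of 5 markers each, 4 were higher for sinusoidal endothelium (38.8 to 93.8 against 131 to 255 CPM), 4 for cholangiocytes (18.3 to 33.8 against 48.3 to 186 CPM), 4 for T and NK cells (0.789 to 2.71 against 2.63 to 4.33 CPM) and 3 for stellate cells (112 to 156 against 277 to 443 CPM). For macrophages and Kupffer cells 2 of 6 markers were higher (33.3%, summed level 87.4 to 270 against 162 to 328 CPM). For B cells 3 of 4 were higher (0.648 to 3.68 against 2.28 to 13.6 CPM). Hepatocyte markers defined the tissue in both groups, although 2 of 6 were lower (33.3%). The summed level of the 6 was 99511 to 123523 CPM in controls and 43364 to 82155 CPM after CD95-Ab. Of 5 markers of cycling cells 0 passed the test in edgeR or DESeq2, and 0 at an unadjusted p under 0.05 (summed level 6.34 to 29.3 against 9.49 to 38.2 CPM), and no list had a marker at 0 in all mice of a group. The part of these cell types in the changes of the 32 genes was not tested.

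Some of the 32 genes share sequence with neighbours. The annotation places a protein-coding gene on the other strand over part of 11 of them, among these Idh3b over Nop56, Parp3 over Rrp9, Lgals8 over Heatr1, Spns2 over Mybbp1a and Mpp1 over Dkc1, and Gm20388 spans Urb2 on the same strand. Whether reads were counted by strand is not stated, so reads from such shared ends cannot be told apart. Ncl, Gnl3, Nop56, Nop58, Dkc1 and Wdr43 also hold 19 annotated snoRNAs in their bodies, of which 1, Gm24451 in Nop56, reached a mean of 1 count in either group (0.2 counts in controls and 7.0 after CD95-Ab).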

How the data were processed

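Liver RNA of 10 mice, 5 per group, was sequenced in paired-end mode. The authors quantified genes by RSEM 1.2.19, per the labels, and deposited 1 table per mouse with expected counts and FPKM. The deposited expected counts are without normalization and were rounded to whole numbers before use. The deposited FPKM values are scaled for transcript length and library total, and served only for levels between genes. The study's methods name a human Gencode release for this step, whereas the deposited identifiers are mouse Ensembl genes, so the annotation behind the counts is unsettled, and the genome build is not given in the sources used here. RSEM shares reads that fit several genes, so counts of overlapping genes and of close copies depend on that step. Library totals and the counts that 3 reads represent are given with the results, and intervals on shares cover counting error only.

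Symbols and positions came from GENCODE mouse release 21 (GRCm38), matched by identifier. Riok2 and Exosc6 of the wider lists were not matched and Mxd3 was too low to be tested. Genes were kept with filterByExpr of edgeR 4.0.16 (minimum count 10), scaled with TMM factors, and tested with the quasi-likelihood test with group as the only term (R 4.3.3). SEs were derived from the F statistic, and p-values were adjusted over all 13719 genes. Single ratios were compared with exact permutation tests over all splits of the mice, by code checked against scipy 1.17.1. Labels call the mice biological replicates. The code was tested on simulated data. Alternatives were DESeq2 1.42.0, the edgeR likelihood ratio test, limma 3.58.1 with voom, RLE and upper quartile factors, library totals, other filters, a prior count of 2 in place of 0.125, the replicate number as block, an FDR of 0.01 and fits without 1 mouse. The fit without saline mouse 5 and CD95-Ab mouse 4 and the ratios within complexes were added after seeing the data.

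The 32 genes, the wider lists and the markers were chosen with earlier results of these data known. Named genes were all 32 and, for each wider list, up to 3 with the largest positive and 2 with the largest negative changes among those called, and genes of the MYC network.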

Additional observations from a re-analysis of the deposited data

Results flagged for a closer look

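In 7 of the 64 groups of 5 mice (32 genes, 2 groups each), 1 mouse was farther from the others than the 95% critical value of Dixon's ratio allows, and chance gives about 5% of groups. Npm1 was at 138 CPM in CD95-Ab mouse 3 and at 114 to 115 CPM in the other CD95-Ab mice. Ddx21 was at 41.4 CPM in CD95-Ab mouse 4 against 63.1 to 71.5 CPM in the others. Nolc1 was at 27.1 CPM in CD95-Ab mouse 5 against 32 to 32.4 CPM, and Noc2l at 26.6 CPM in the same mouse against 30.4 to 31.7 CPM. Nop56 was at 24.9 CPM in saline mouse 5 against 17.1 to 17.9 CPM, and Dkc1 at 4.36 CPM in that mouse against 9.47 to 11.3 CPM. Dkc1 was at 9.04 CPM in CD95-Ab mouse 4 against 12.1 to 12.8 CPM. Saline mouse 5 and CD95-Ab mouse 4, which had the highest mitochondrial shares of their groups, hold 2 of these values each.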

How the results depend on the processing

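Of the 17 genes called higher, 14 were called in all 21 alternative fits, the exceptions being Fbl, Nop2 and Noc2l, the last lost only with library totals (FDR = 0.119), and none of the 32 estimates changed sign in these fits. The number of the 32 genes called higher was 17 with DESeq2, 15 with upper quartile factors, 14 with library totals, 15 without a filter on low counts, and 15 at an FDR of 0.01. With the replicate number as a block it was 16, with Fbl (FDR = 0.0933) and Nop2 (FDR = 0.062) lost and Bop1 gained. Same-numbered mice did not deviate together (mean correlation 0.037, against -0.006 for other pairs), so they share only a number, and 2 of the 5 numbers matched best with themselves. Leaving out each mouse gave 15 to 18 higher and 0 to 1 lower, the 1 being Nop10 without CD95-Ab mouse 4, a median of 0.35 to 0.45, and 1 to 1 gene above and 0 to 0 below a log2 fold change of 2. Over all genes it gave 3142 to 3581 higher and 2474 to 3396 lower, and over the other ribosome biogenesis genes 50 to 58 higher and 3 to 9 lower (6 with all mice, 3 without CD95-Ab mouse 2). Without saline mouse 5 and CD95-Ab mouse 4, 1 of the 32 (Polr1c) and 10 of the other ribosome biogenesis genes were lower. The latter were 10 with DESeq2 and 11 with upper quartile factors. At an FDR of 0.01, 37 of these genes were higher and 1 lower, and 1897 of all genes were lower. The 15 ratios gave 6 to 10 calls with 1 mouse left out, 6 without CD95-Ab mouse 1, 2 or 4, where the smallest possible p of the exact test is 0.0159, 9 with FPKM, and 0 without saline mouse 5 and CD95-Ab mouse 4, where it is 0.0286. Of the 10 genes highest by control FPKM, 6 were among the 10 highest by CPM. Depth limits little here, since the lowest count of any of the 32 genes was 81, whereas 5 mice per group leave intervals of about the width given above.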

Other observations

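The CD95-Ab mice with the most Myc RNA were not those with the largest shift of the other 31 genes. Myc was at 77.6 and 79.4 CPM in CD95-Ab mice 3 and 4, whose median log2 ratios over the 31 genes were 0.40 and 0.43. Myc was lowest in CD95-Ab mouse 1, at 31.3 CPM, whose median of 0.64 was the highest of the group. CD95-Ab mouse 5 went the other way, with little Myc for its group (34.9 CPM) and the lowest median, 0.21. CD95-Ab mouse 2 lay between, at 53.2 CPM and 0.44. A link between Myc and the other genes was not tested. With 5 mice per group no correlation within the group was computed.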
